A study of Mus musculus with 17 samples.

Results

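Ribosome biogenesis genes encode the nucleolar proteins that transcribe, modify, cut and assemble ribosomal RNA into the small and large subunits. They were followed here across early innate lymphoid progenitors (EILP) and 8 other mouse cell populations sorted from bone marrow and thymus. The 44 members were listed by their known function, with earlier results of these data known. Of these, 41 had a probe set that carries a single gene symbol, out of 22180 such genes on the array. Fbl, Tsr1 and Npm3 had none and are not analysed here. From bone marrow came EILP, common lymphoid progenitors (CLP), natural killer cells (NK), flt3+ and flt3- common myeloid progenitors (CMP), lymphoid-primed multipotent progenitors (LMPP) and hematopoietic stem cells (HSC). From thymus came DN3 thymocytes and the earlier thymic progenitors (ETP). Each population had 2 arrays except EILP, which had 1, making 17 Affymetrix Mouse Gene 2.0 ST arrays. All populations came from long-term chimeras: CD45.1 B6 recipients were given 900 rads and then bone marrow of TCF-1 GFP reporter donors, and were used 12 weeks later. Per the labels, the sorted cells were pooled from several mice, and neither age nor separate animals per replicate is given. P-values therefore measure only the spread between these samples, and the fit takes the spread of the single EILP array to be that of the populations with 2.

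A ribosome begins as a long precursor RNA made by RNA polymerase I in the nucleolus. Small nucleolar ribonucleoprotein particles (snoRNPs) guide its chemical modification, the box C/D class ribose methylation and the box H/ACA class pseudouridylation. Separate sets of assembly factors then cut and fold the part that enters the small subunit and the part that enters the large subunit. The pathway is among the costliest in a growing cell, and in blood formation its output is known to follow growth and division, with Myc as a well-studied activator of many of its genes.

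The populations were checked first against markers of their own. All 6 measured HSC markers, all 7 NK markers and all 5 DN3 markers were highest in the population they name, and 5 of 7 CMP markers were highest in a CMP population. Only 1 of 4 LMPP markers (Flt3), 1 of 5 CLP markers (Ebf1), 2 of 4 EILP markers (Nfil3 and Zbtb16) and 1 of 5 ETP markers (Kit) were highest in theirs, although none of these markers lay below the median of all values in its own population. Array medians ranged from 4.45 to 4.62 on the log2 scale, so they differed little, and precision is limited by how few arrays there are. The mean of the Y-linked transcripts Eif2s3y, Kdm5d and Uty was 7.03 to 7.66 on the 5 EILP, CLP and DN3 arrays and 3.03 to 3.38 on the 12 others. Xist was 7.13 to 9.44 on those 5 arrays and 11.24 to 11.81 on the 12 others. EILP against the rest, EILP against NK, CLP against LMPP and DN3 against ETP cross this split, so in these comparisons the population and this split cannot be told apart.

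All 41 members lay above the median of all values, 4.54, on every array. By the moderated F test of limma over the 9 population means, 30 of the 41 members (73.2%) differed among populations at an adjusted p under 0.05. The same test called 22.7% of all genes, and 44.3% of the 7649 genes whose mean was at or above that of the dimmest member. Because the list was chosen with earlier results known, the members' share is a description. Mybbp1a, a nucleolar Myb-binding protein, Nop2, an rRNA methyltransferase, Ddx10, an RNA helicase, and Rpf2, which brings an rRNA particle into the large subunit, had the smallest adjusted p-values. The 11 members not called included the RNA polymerase I subunits Polr1a, Polr1b and Polr1e and the abundant chaperones Ncl (nucleolin) and Npm1 (nucleophosmin).

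The members shared an order of populations. Their mean deviation from each gene's own average was 0.57 in flt3- CMP, 0.34 in DN3, 0.29 in flt3+ CMP, -0.04 in HSC, -0.10 in LMPP, -0.14 in ETP, -0.17 in CLP, -0.25 in NK and -0.51 in EILP (log2). All 41 members were above their own average in flt3- CMP, and 40 of 41 were below it in EILP. The flt3- CMP arrays (0.56 and 0.59) lay above all others and the EILP array below all others. DN3 arrays (0.31 and 0.38) and flt3+ CMP arrays (0.20 and 0.37) overlapped, as did ETP and LMPP arrays, so these neighbours in the order did not differ beyond their spread. Flt3- CMP had the highest of the 9 population means in 35 of 41 members, DN3 in 4 (Ncl, Bms1, Rrp1b and Ddx18) and flt3+ CMP in 2 (Npm1 and Ddx10). Over all genes, flt3- CMP was the highest population in 13.0%. EILP had the lowest mean in 22 members, NK in 10, CLP in 4, ETP in 4 and HSC in 1, and EILP was the lowest population in 16.2% of all genes.

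**Figure D1:**
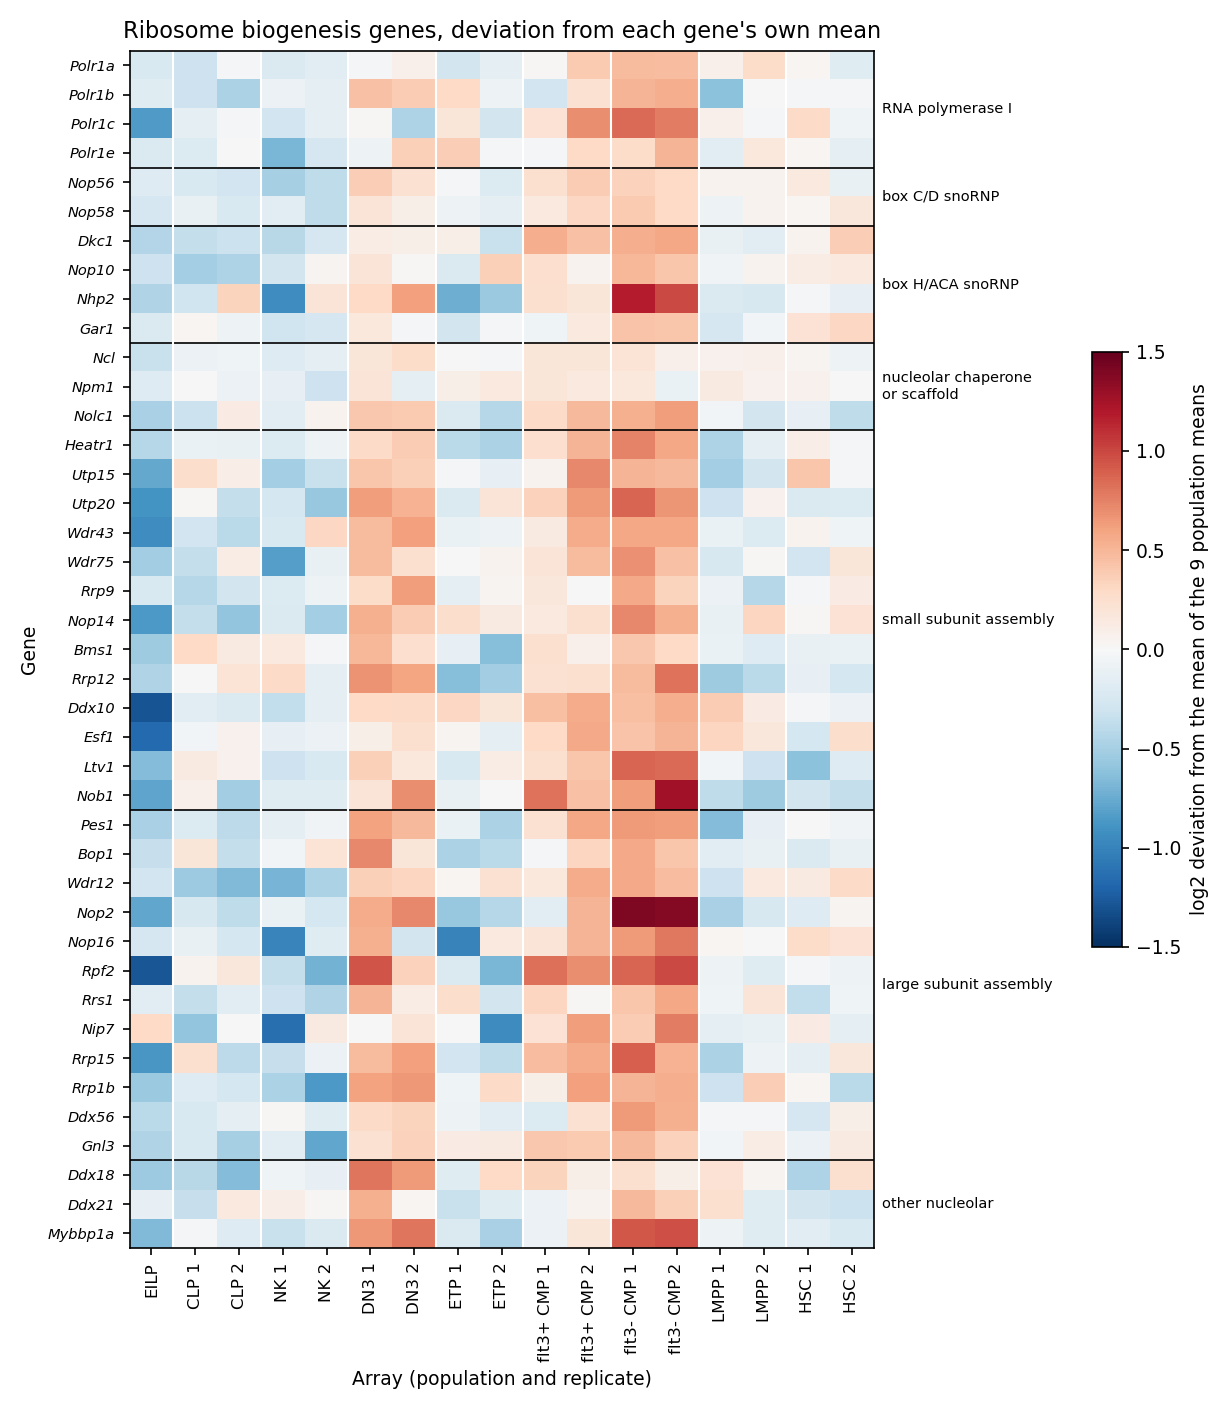
Log2 deviation of each of the 41 measured members (rows, grouped by role) from its own mean over the 9 population means, on each of the 17 arrays (columns); red is above and blue below, and the colour scale ends at 1.5 in either direction. The flt3- CMP and DN3 columns are red in nearly every row and the EILP column is blue in 40 of 41.

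On both flt3- CMP arrays, 15 members were above all 15 other arrays. This pattern was seen in 3.64% of all genes and in 8.5% of the genes at least as bright as the dimmest member. By role the 15 were 3 subunits of RNA polymerase I (Polr1a, Polr1b and Polr1c), the box H/ACA proteins Nop10, Nhp2 and Gar1, the scaffold Nolc1, the small subunit factors Heatr1, Utp20 and Ltv1, the large subunit factors Pes1, Nop2, Nop16 and Ddx56, and Mybbp1a. On the EILP array, 17 members were below all 16 other arrays, against 7.26% of all genes and 11.2% of the genes at least as bright. They were Polr1c, Dkc1, Ncl, Nolc1, Utp15, Utp20, Wdr43, Nop14, Ddx10, Esf1, Ltv1, Nob1, Nop2, Rpf2, Rrp15, Ddx56 and Mybbp1a. No member had the EILP array above all others.

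Members differed in how far they moved. The range of the 9 population means had a median of 1.10 over members (log2). It was widest for Rpf2 (2.22), Nop2 (2.16) and Ddx10 (1.80), and narrowest for Npm1 (0.38), Ncl (0.57) and Nop58 (0.62), a core protein of the box C/D particle. Across the 17 arrays, a member's correlation with the mean of the other members had a median of 0.80, given as a description because the arrays share populations. It was highest for the small subunit factor Utp20 (0.93), Nop2 (0.91) and Rrp15 (0.91), a large subunit factor. It was lowest for Npm1 (0.39), the large subunit factor Nip7 (0.55) and the helicase Ddx21 (0.57).

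Members that passed the test in none of the 10 comparisons between populations are described here by the lowest and highest of their 9 population means (log2). Among RNA polymerase I subunits, Polr1a, the largest catalytic subunit, was 7.20 in EILP and 7.89 in flt3- CMP, Polr1b was 5.37 in CLP and 6.29 in flt3- CMP, and Polr1e was 5.11 in NK and 5.97 in flt3- CMP. Nop58 was 9.78 in NK and 10.39 in flt3- CMP. In the box H/ACA particle, the pseudouridine synthase Dkc1 (dyskerin) was 7.76 in EILP and 8.76 in flt3- CMP (F test adjusted p = 0.00311), Nop10 was 8.79 in CLP and 9.74 in flt3- CMP, and Gar1 was 6.26 in NK and 6.96 in flt3- CMP. Each of these members was highest in flt3- CMP, whereas the lowest population varied.

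The same held for most of the remaining assembly factors. Wdr75, of the early small subunit complex, was 7.83 in EILP and 8.92 in flt3- CMP, and Rrp9, a protein of the snoRNP that guides early cleavage, was 5.17 in CLP and 5.98 in flt3- CMP. Among large subunit factors, Nop16 was 7.12 in NK and 8.43 in flt3- CMP, Rrs1, the partner of Rpf2, was 5.90 in NK and 6.78 in flt3- CMP, and Gnl3 (nucleostemin), a nucleolar GTP-binding protein of stem and dividing cells, was 9.79 in NK and 10.69 in flt3- CMP. Wdr12 was 6.57 in CLP and 7.70 in flt3- CMP. NK and CLP held the lowest mean of several members that EILP did not.

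Promoters were read for the members because so many of them moved together. RefSeq (GRCm38.p6) gave the sequence from 250 bases before to 50 bases after the start for 37 of the 41 members, and 7 motifs were searched on both strands. CACGTG, the E-box letters known to be bound by Myc with Max, occurred in 7 of 37 members (18.9%), in 8.09% of the promoters of all genes and in 12.1% of those of the genes at least as bright as the dimmest member. CCGGAAGT, the letters of an ETS site, was in 27.0% of members, 4.31% of all genes and 10.4% of the bright genes. GGGCGG, the Sp1 box, was in 70.3% of members, 38.2% of all genes and 68.5% of the bright genes, and CCAAT in 40.5%, 41.1% and 43.2%. TATAAA was in 5.41% of members, 15.7% of all genes and 8.45% of the bright genes, and GCGCATGC, the NRF1 core, in 5.41%, 3.05% and 6.87%. AAGATGGC, the YY1 core, was in no member's window, in 3.19% of all genes and in 6.16% of the bright genes. CACGTG reads the same on both strands, and no other motif searched contains it. The 7 windows of 30 bases that hold it follow, on the strand of the gene with CACGTG in capitals, because these members recur in the comparisons. A match is a description of the letters and not evidence of binding.
Ltv1, chr10:13193092-13193121, minus strand: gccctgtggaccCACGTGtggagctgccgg
Mybbp1a, chr11:72441347-72441376, plus strand: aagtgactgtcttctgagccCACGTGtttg
Nop2, chr6:125131811-125131840, plus strand: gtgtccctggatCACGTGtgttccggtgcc
Pes1, chr11:3963965-3963994, plus strand: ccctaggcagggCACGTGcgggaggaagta
Rpf2, chr10:40246990-40247019, minus strand: ggaagtaatcggtaCACGTGcattcgctaa
Utp20, chr10:88826765-88826794, minus strand: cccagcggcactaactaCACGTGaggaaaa
Wdr43, chr17:71616220-71616249, plus strand: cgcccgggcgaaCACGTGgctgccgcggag

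In Nop2 the E-box starts 60 bases before the annotated start, and in the other 6 it lies after it, its first base 3 to 41 bases downstream. Because Nop2 has the widest range of the 7 after Rpf2 and the only upstream E-box, the 150 bases before its start are shown whole, with CACGTG in capitals.
Nop2, chr6:125131733-125131882, plus strand: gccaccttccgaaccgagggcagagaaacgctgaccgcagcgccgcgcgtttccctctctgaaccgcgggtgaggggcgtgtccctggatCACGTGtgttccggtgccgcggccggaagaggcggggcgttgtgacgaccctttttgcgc

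EILP were lower than the mean of the 8 other populations in 12 of the 41 members and higher in none. The same comparison called 4.63% of all genes, 2.03% as lower, and 4.9% of the bright genes as lower. The median difference was -0.51 over members and -0.02 over all genes (log2), and 40 of 41 members had a difference below 0. Small subunit factors held most of the calls, with 7 of 13 lower and a median of -0.86. Large subunit factors had 3 of 12 lower (median -0.48), RNA polymerase I subunits 1 of 4 (-0.25) and other nucleolar factors 1 of 3 (-0.61). None of the 2 box C/D proteins, 4 box H/ACA proteins and 3 chaperones or scaffolds was called, with medians of -0.26, -0.42 and -0.38. The box C/D median includes the brightest of 3 probe sets of Nop56 (-0.22), and the other 2, which were not tested, gave -0.83 and -1.69. No test compared the roles with each other.

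Ddx10, a helicase of the small subunit pathway, was 6.25 on the EILP array, against a lowest of 7.17, a median of 7.78 and a highest of 8.10 on the 16 other arrays. The EILP value stood alone, with a gap to the nearest array that exceeded the spread of any pair. The log2 difference was -1.45 ± 0.15 (SE, limma adjusted p = 7.97e-05), a 2.74-fold lower level. Rpf2 was 6.44 in EILP, against 7.01, 7.74 and 8.72 as the lowest, median and highest of the others, and differed by -1.45 ± 0.22 (adjusted p = 0.00133). Esf1, another small subunit factor, was 7.47 in EILP, against 8.37, 8.76 and 9.20 in the others, a difference of -1.31 ± 0.18 (adjusted p = 0.000853). These 3 members had no overlap between EILP and any other array.

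The other calls were smaller. Wdr43, a subunit of the early small subunit complex, was 8.15 in EILP and between 8.67 and 9.70 elsewhere, a difference of -1.05 ± 0.19 (adjusted p = 0.00664). Utp20, a scaffold of the same complex, was 5.47 in EILP and 5.80 to 7.24 elsewhere, a difference of -1.01 ± 0.21 (adjusted p = 0.0125). Rrp15 (-0.98 ± 0.23), Nop14 (-0.97 ± 0.19) and Polr1c (-0.96 ± 0.22), the last shared by RNA polymerases I and III, followed with adjusted p-values of 0.0247, 0.00799 and 0.0247. Nop2 (-0.87), Utp15 (-0.86), Mybbp1a (-0.74) and Ltv1 (-0.73), a factor of late small subunit export, completed the 12. Nip7 was the only member with a difference above 0 (0.34 ± 0.38, adjusted p = 0.812): it was 7.13 in EILP, inside the 5.71 to 7.60 of the other arrays. Of the 7 members with CACGTG shown above, 6 were lower in EILP (median -0.87), against 6 of the 30 without it (median -0.48), and with CCGGAAGT 4 of 10 were lower (median -0.55), against 8 of 27 without it (-0.54). None of these splits was tested.

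EILP were also set against other groups. Against the 7 other populations without flt3- CMP, 9 members were lower with a median of -0.43. Against the mean of CLP and DN3, the populations on the same side of the split in Y-linked transcripts, 13 were lower with a median of -0.61. DN3 was itself high in the members (mean deviation 0.34), and against CLP alone 3 were lower. Against the 6 other bone marrow populations, 10 were lower with a median of -0.51. The shares of all genes called against these groups are not given here. Neutrophil transcripts moved with the comparison: 7 of 8 neutrophil markers (S100a8, S100a9, Ltf, Camp and others) were higher in EILP, with a median of 2.63. Their mean log2 level was 11.65 in EILP, 11.47 and 11.62 in CLP, 9.54 to 11.05 on the other 10 bone marrow arrays and 4.21 to 4.95 on the 4 thymus arrays. The 8 macrophage markers were Adgre1, C1qa, C1qb, C1qc, Cd68, Vcam1, Slc40a1 and Marco. Of these, 4 were higher in EILP, and the median over the 8 was 0.91. The mean level of the 8 was 5.98 in EILP and 4.53 to 5.69 elsewhere. C1qa did not pass the F test (adjusted p = 0.688). Rhag and Slc4a1, the 2 of 6 listed red cell markers that were measured, were both higher in EILP (median 1.71), with a mean level of 7.87 in EILP, 7.91 and 8.06 in CLP and 4.45 to 7.26 elsewhere. The part of these transcripts in the difference of the members from the rest was not tested. In sorted bulk RNA, fewer cells that express a gene and less of its RNA per cell cannot be told apart.

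**Figure D2:**
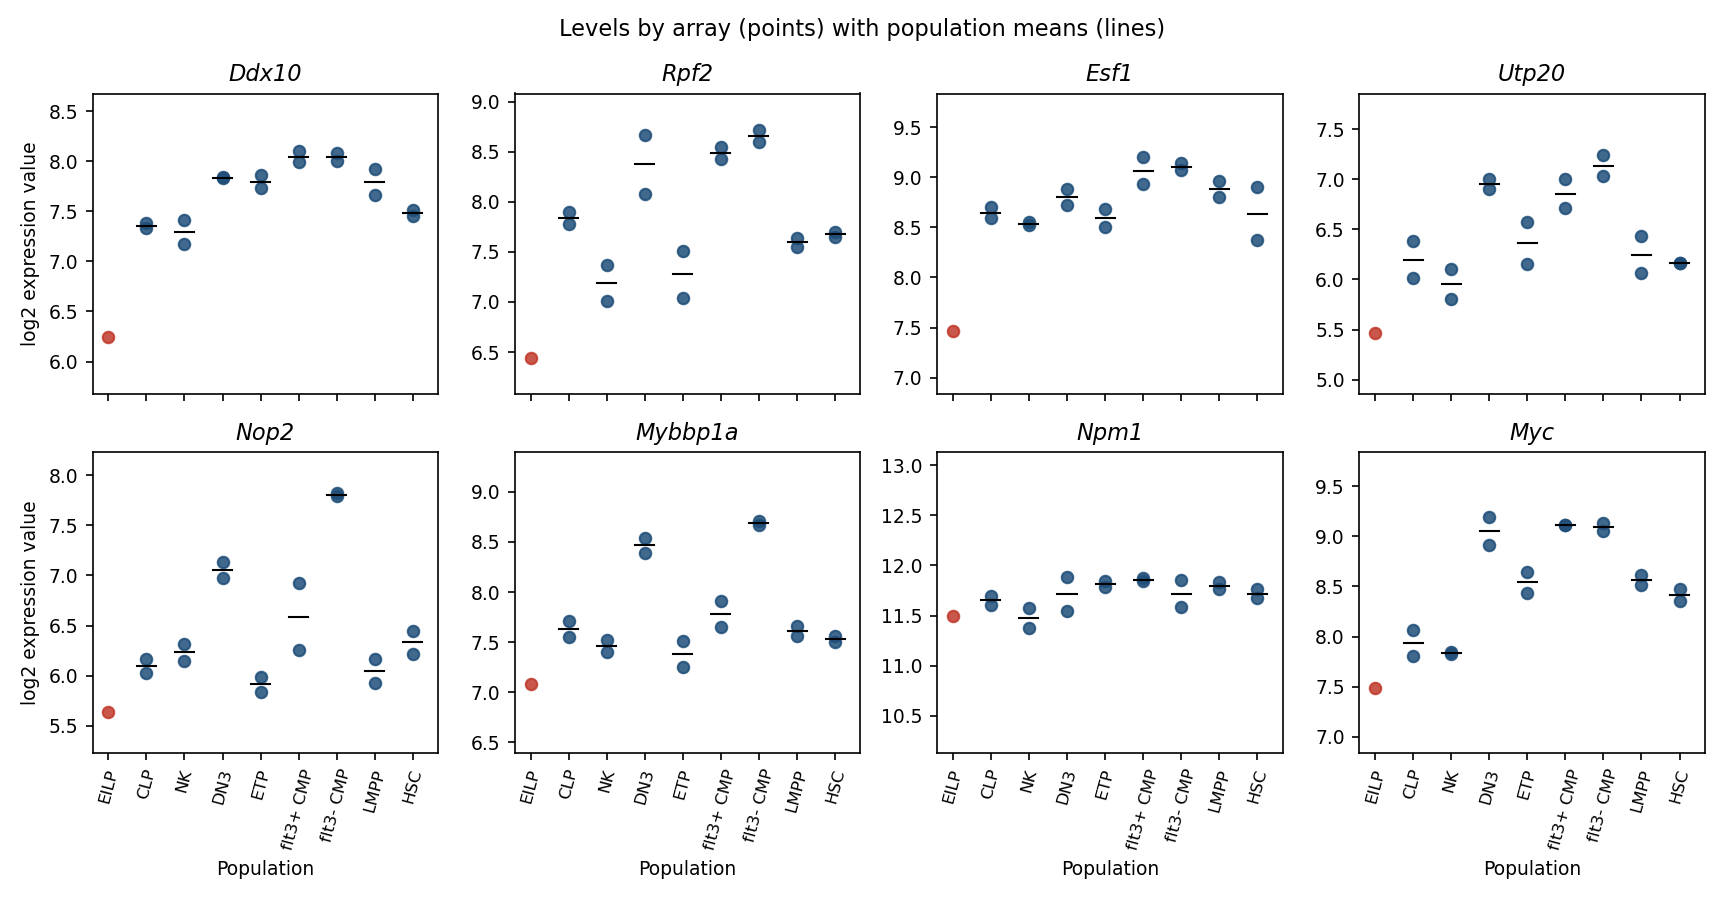
Log2 expression values (y axis, each panel spans 3 log2 units) on each array for 7 members and Myc, by population (x axis); points are arrays, lines are means of 2 arrays and red marks the single EILP array. EILP is the lowest point in every panel but Npm1, and flt3- CMP stands apart from flt3+ CMP in Nop2 and Mybbp1a.

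EILP were also set against the populations nearest to them by lineage. Against CLP, 3 members were lower and none higher, while 0.365% of all genes were called, and the median difference was -0.25 over members and 0.05 over all genes. Rpf2 was 6.44 in EILP and 7.78 and 7.90 in CLP (-1.40 ± 0.26, adjusted p = 0.0328). Esf1 was 7.47 in EILP and 8.59 and 8.70 in CLP (-1.17 ± 0.22, adjusted p = 0.0382). Ddx10 was 6.25 in EILP and 7.38 and 7.33 in CLP (-1.11 ± 0.18, adjusted p = 0.0174). Each had a gap of over 1 log2 unit between EILP and the nearer CLP array, but none of the 3 calls held when either CLP array was left out. In EILP minus CLP the neutrophil markers had a median of 0.09, and 7 of 8 lay above 0. All 8 macrophage markers lay above 0 (median 0.28, highest 0.67), as did 1 of the 2 red cell markers (median -0.11). No neutrophil, macrophage or red cell marker had a limma p-value below 0.05, before or after adjustment. With 1 EILP array and a median SE of 0.24, this lack of calls cannot show that the levels are equal. The part of these markers in the difference of the members was not tested. EILP and CLP lie on the same side of the Y-linked split.

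Against NK, 3 members were lower and none higher, while 3.48% of all genes were called and 1.91% were lower. The median was -0.28 over members and -0.05 over all genes. Esf1 was 7.47 in EILP and 8.52 and 8.55 in NK (-1.06 ± 0.22, adjusted p = 0.0155). Ddx10 was 6.25 in EILP and 7.17 and 7.41 in NK (-1.04 ± 0.18, adjusted p = 0.00482). Wdr43 was 8.15 in EILP and 8.84 and 9.39 in NK (-0.97 ± 0.23, adjusted p = 0.0347), and its NK arrays lay further apart than those of the other 2 genes. Without NK replicate 2 only Ddx10 was called. Macrophage markers were higher in EILP than in NK in 3 of 8 (median 0.57), and neutrophil markers in 1 of 8 (median 0.61, 4 at an unadjusted p under 0.05). Of the 2 red cell markers none was called by limma (median 0.74, 1 at an unadjusted p under 0.05). Their part in the comparison was not tested. The EILP array enters all 3 EILP comparisons, so they are not independent of each other.

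Flt3- CMP, myeloid progenitors without surface Flt3, were higher than HSC in 12 of 41 members and lower in none. The comparison called 4.22% of all genes, 2.4% as higher, and 5.94% of the bright genes as higher. The median difference was 0.58 over members and 0.04 over all genes, and 40 of 41 were above 0. By role, the higher members were 6 of 13 small subunit factors (median 0.59), 3 of 12 large subunit factors (0.66), 1 of 4 box H/ACA proteins (0.34), 1 of 3 chaperones or scaffolds (0.16) and 1 of 3 other nucleolar factors (0.72). No RNA polymerase I subunit (median 0.54) and no box C/D protein (0.28) was called. Both sides of this comparison lie on the same side of the Y-linked split, and 8 of 8 neutrophil markers were below 0 (median -0.57, 2 called lower). Of 8 macrophage markers 1 was higher (median 0.04), as was 1 of 2 red cell markers (median 0.98). Their part in it was not tested.

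Nop2, whose promoter stretch is printed above, was 7.82 and 7.79 in flt3- CMP, against 6.22 and 6.45 in HSC. The 4 arrays fell into 2 tight pairs, a 2.76-fold higher level in flt3- CMP (1.47 ± 0.20, adjusted p = 0.00151). Ltv1 was 8.74 and 8.72 in flt3- CMP, against 7.26 and 7.67 in HSC (1.27 ± 0.18, adjusted p = 0.00189). Mybbp1a was 8.67 and 8.71 in flt3- CMP, against 7.56 and 7.50 in HSC (1.15 ± 0.15, adjusted p = 0.00124). These 3 remained called whichever of the 4 arrays was left out. Nob1, the endonuclease that makes the last cut of small subunit rRNA, was 7.71 and 8.34 in flt3- CMP, against 6.81 and 6.73 in HSC (1.26 ± 0.24, adjusted p = 0.0117). Nhp2, a box H/ACA protein, was 8.24 and 8.04 in flt3- CMP, against 7.02 and 6.93 in HSC (1.16 ± 0.29, adjusted p = 0.0407). Rpf2 (0.98 ± 0.21), Utp20 (0.98 ± 0.20) and Rrp12 (0.84 ± 0.17), a factor for both subunits, followed with adjusted p-values of 0.0190, 0.0172 and 0.0171.

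The remaining calls were Nolc1 (0.83), Ddx56 (0.67), Heatr1 (0.62) and Ddx10 (0.56). With any 1 of the 4 arrays left out, 3 to 5 of the 12 members stayed called, down to 3 without HSC replicate 1, HSC replicate 2 or flt3- CMP replicate 2 and to 5 without flt3- CMP replicate 1, while the median stayed between 0.54 and 0.59. Npm1 had no difference (0.00). Of the 7 members with CACGTG, 5 were higher in flt3- CMP (median 0.98), against 6 of the 30 without it (median 0.48). With CCGGAAGT, 4 of 10 were higher (median 0.66), against 7 of 27 without it (median 0.54). Neither split was tested.

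Within the myeloid progenitors, flt3+ CMP were lower than flt3- CMP in 2 members and higher in none, while 0.108% of all genes were called. The median was -0.26 over members and -0.02 over all genes, and 37 of 41 members were below 0. Nop2 was 6.26 and 6.92 in flt3+ CMP, against 7.82 and 7.79 in flt3- CMP (-1.21 ± 0.20, adjusted p = 0.0390). Mybbp1a was 7.65 and 7.91 in flt3+ CMP, against 8.67 and 8.71 in flt3- CMP (-0.90 ± 0.15, adjusted p = 0.0461). For both genes the flt3+ CMP arrays were further apart than the flt3- CMP arrays, and the pairs did not overlap. The 2 calls were lost under most alternatives: 1 remained without flt3+ CMP replicate 2 (Nop2) and none without any other array of the 4. Several members hardly differed between the 2 CMP populations, among them Ddx10 (8.05 in flt3+ CMP and 8.04 in flt3- CMP) and Esf1 (9.07 in flt3+ CMP and 9.10 in flt3- CMP).

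In the thymus, DN3 cells were higher than ETP in 11 of 41 members and lower in none. DN3 is the stage at which thymocytes rearrange the T cell receptor beta gene, and it is known for strong division once that succeeds. The comparison called 8.73% of all genes, 5.2% as higher, and 11.4% of the bright genes as higher. The median was 0.46 over members and -0.03 over all genes, and 38 of 41 members were above 0. Large subunit factors held 5 of the 11 calls among 12 members (median 0.56) and small subunit factors 3 among 13 (0.50), with 1 each from the box H/ACA, scaffold and other nucleolar groups. The 4 RNA polymerase I subunits had a median of 0.10 and none was called.

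Rrp12 was 6.37 and 6.29 in DN3, against 5.06 and 5.19 in ETP (1.21 ± 0.17, adjusted p = 0.000519). Nop2 was 6.97 and 7.13 in DN3, against 5.84 and 5.99 in ETP (1.14 ± 0.20, adjusted p = 0.00234). Mybbp1a was 8.39 and 8.54 in DN3, against 7.51 and 7.25 in ETP (1.08 ± 0.15, adjusted p = 0.000444). In each of these 3 genes the pairs were separated by more than their own spread. Nhp2 was 7.36 and 7.67 in DN3, against 6.32 and 6.50 in ETP (1.11 ± 0.29, adjusted p = 0.0298). Rpf2 was 8.67 and 8.08 in DN3, against 7.51 and 7.04 in ETP (1.10 ± 0.21, adjusted p = 0.00415). Bop1 (0.90 ± 0.21) and Pes1 (0.84 ± 0.19), which form one large subunit complex with Wdr12, were called with adjusted p-values of 0.0174 and 0.0153, and Rrp15 (0.88 ± 0.22) with 0.0236. Wdr12 itself differed by 0.22 and was not called.

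Heatr1 (0.77), Bms1 (0.76), a GTPase of the small subunit pathway, and Nolc1 (0.72) completed the 11. Leaving out 1 array gave 4 to 8 calls: 4 without DN3 replicate 1, 5 without ETP replicate 2, 6 without DN3 replicate 2 and 8 without ETP replicate 1. Among the 7 members with CACGTG, 4 were higher in DN3 (median 0.84), against 5 of the 30 without it (median 0.37). With CCGGAAGT, 5 of 10 were higher (median 0.66), against 4 of 27 without it (median 0.43). Ltv1 and Rpf2 carry both motifs, and neither split was tested. All 14 measured cell division genes were higher in DN3 too, with a median of 1.65, and their part in the difference of the members was not tested.

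**Figure D3:**
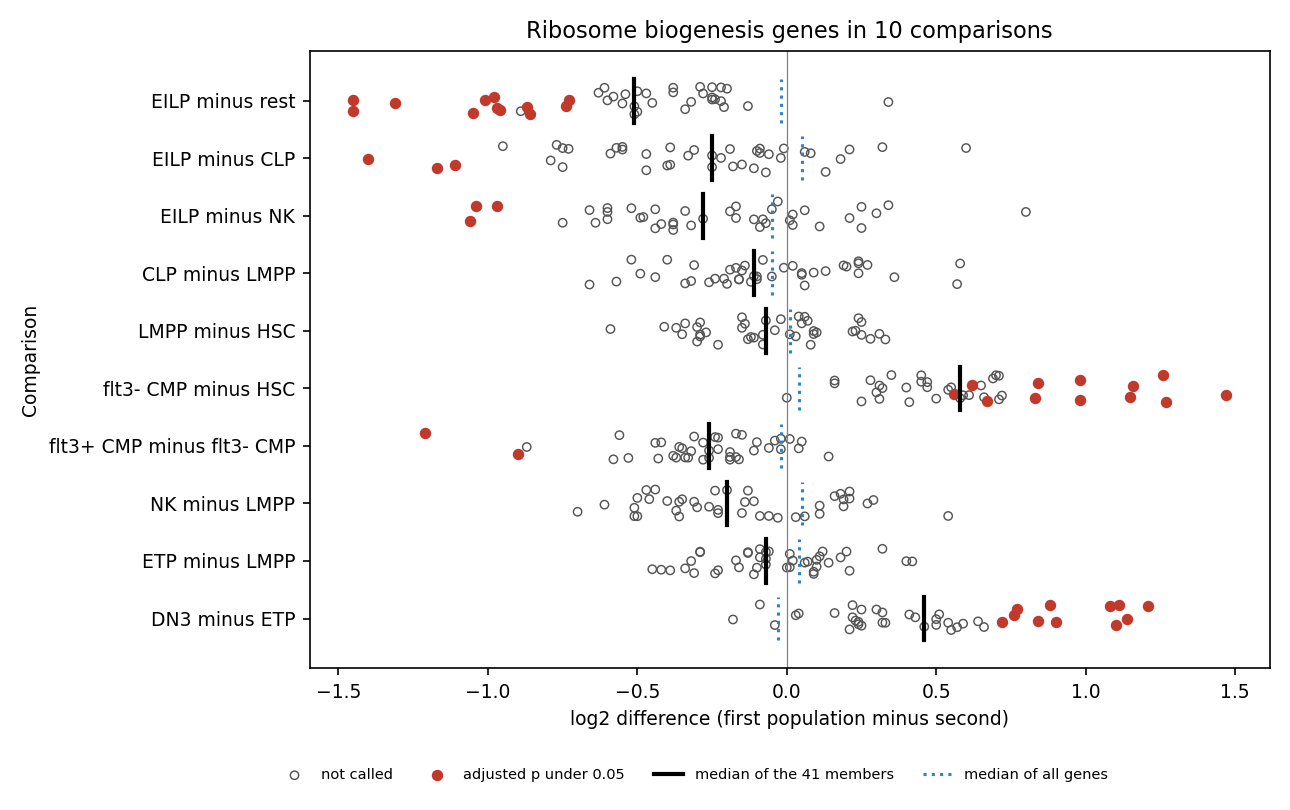
Log2 differences of the 41 members (points, 1 per gene) in the 10 comparisons (rows, first population minus second); filled red points passed an adjusted p under 0.05, the black bar is the members' median and the dotted bar the median of all genes. The members' median lies left of the dotted bar in EILP minus rest (-0.51). It lies right of the dotted bar in flt3- CMP minus HSC (0.58) and DN3 minus ETP (0.46). At least 1 member lies on the other side in each of these rows, and no red point appears in 4 rows.

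The flt3- CMP against HSC and DN3 against ETP comparisons share no arrays. Their higher members overlapped in 7 genes, which are 58.3% of the 12 and 63.6% of the 11: Nhp2, Nolc1, Heatr1, Rrp12, Nop2, Rpf2 and Mybbp1a. Over all genes, 182 were higher in both, 34.2% of the 532 and 15.8% of the 1154, and over the bright genes 168, 37.0% of the 454 and 19.3% of the 872. In both, 38 of 41 members had a difference above 0. Across the 41 members the differences had a correlation of 0.59, as a description across genes, which are not independent replicates. Ltv1, Nob1, Utp20, Ddx56 and Ddx10 were called for flt3- CMP only and Bms1, Pes1, Bop1 and Rrp15 for DN3 only, and the difference between the 2 comparisons was not tested for any gene. Over all 10 comparisons 21 members (51.2%) were called at least once and 20 never, against 20.2% of all genes and 38% of the bright genes called at least once. All 7 members with CACGTG were among those called in EILP against the rest, flt3- CMP against HSC or DN3 against ETP, as were 12 of the 30 without it. For CCGGAAGT the counts were 7 of 10 with it and 12 of 27 without it. Neither split was tested, and the share called among all genes with either motif was not computed. The motifs were chosen with earlier results of these data known.

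**Figure D4:**
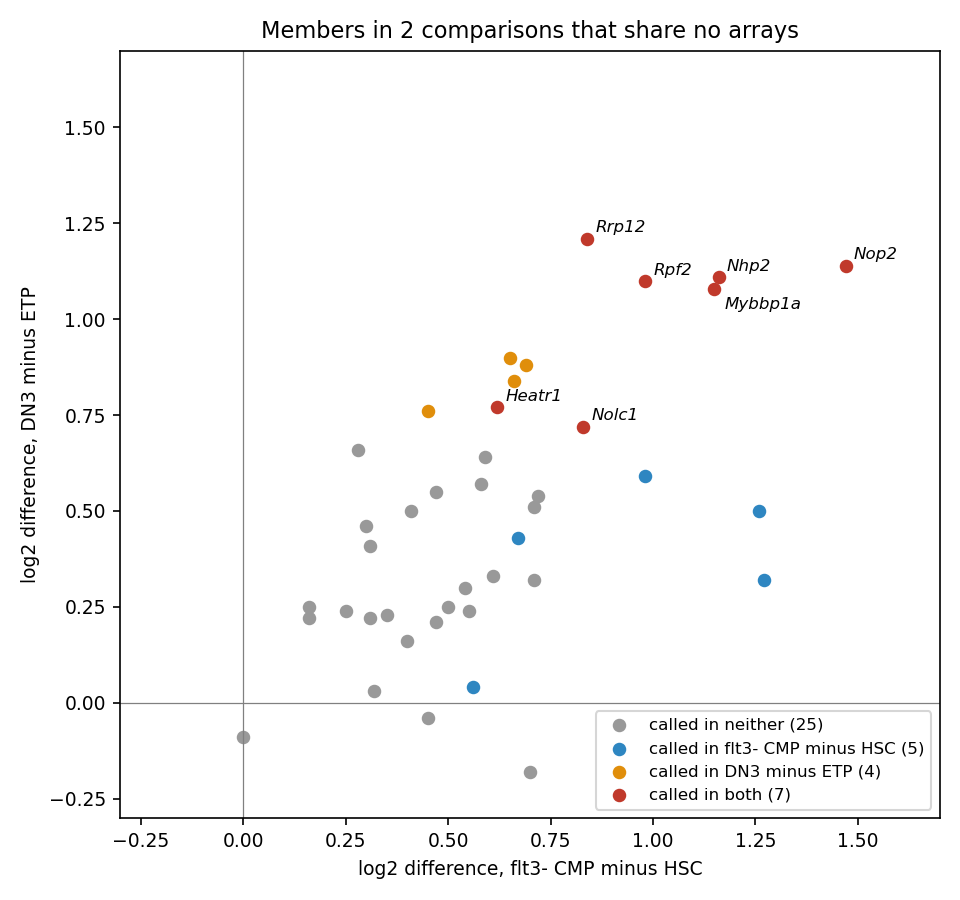
Log2 difference of each member in flt3- CMP minus HSC (x axis) and in DN3 minus ETP (y axis), coloured by where its adjusted p was under 0.05. The 7 named genes were called in both, and 38 of 41 points lie above 0 on both axes.

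In 4 comparisons no member passed the threshold. LMPP against HSC had a median of -0.07 over members and 0.01 over all genes, with 0.6% of all genes called and 3 members at an unadjusted p under 0.05 (limma). Differences ran between -0.59 ± 0.21 for Utp15 (adjusted p = 0.452) and 0.33 ± 0.21 for Ddx21 (adjusted p = 0.881). CLP against LMPP had a median of -0.11 over members and -0.05 over all genes, with 5.96% of all genes called and 7 members at an unadjusted p under 0.05. Its ends were -0.66 ± 0.22 for the helicase Ddx18 (adjusted p = 0.117) and 0.58 ± 0.21 for Utp15 (adjusted p = 0.154). Utp15, a subunit of the early small subunit complex, was 7.36 and 7.20 in CLP, 6.59 and 6.81 in LMPP, and 7.51 and 7.07 in HSC, with LMPP below both neighbours.

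NK against LMPP had a median of -0.20 over members and 0.05 over all genes, with 6.72% of all genes called and 8 members at an unadjusted p under 0.05. Rrp1b, a large subunit factor, was lowest (-0.70 ± 0.25, adjusted p = 0.118) and Rrp12 highest (0.54 ± 0.17, adjusted p = 0.0902). ETP against LMPP had a median of -0.07 over members and 0.04 over all genes, with 3.42% of all genes called and 1 member at an unadjusted p under 0.05. In that comparison 13 of 14 cell division genes were lower in ETP than in LMPP, with a median of -1.48. In flt3- CMP against HSC, 1 of the 14 was higher (median 0.58), in CLP against LMPP 5 were higher (median 0.64), and in EILP against the rest none was called, with a median of 0.34 and 3 at an unadjusted p under 0.05.

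The wider pathway was taken from 127 other ribosome biogenesis genes, of which 120 were measured. The F test called 52 of them (43.3%), against 22.7% of all genes and 44.3% of the bright genes. EILP were lower than the rest in 15 and higher in none (median -0.43), among them Mdn1, a large ATPase that remodels the large subunit precursor (-1.06 ± 0.17, adjusted p = 0.00216), Taf1b, a subunit of the factor that selects the rRNA gene promoter (-1.08 ± 0.20, adjusted p = 0.00581), and Ubtf, which binds the rRNA genes (-0.86 ± 0.21, adjusted p = 0.0305). Flt3- CMP were higher than HSC in 20 and lower in none (median 0.52), with Tcof1, the nucleolar protein treacle, at 1.36 ± 0.29 (adjusted p = 0.0179) and Ubtf at 0.93 ± 0.20 (adjusted p = 0.0207). DN3 were higher than ETP in 22 and lower in none (median 0.48), with Tcof1 at 2.02 ± 0.29 (adjusted p = 0.000447) and Ubtf at 0.84 ± 0.20 (adjusted p = 0.0182). The 15 lower in EILP were 12.5% of the list, against 2.03% of all genes and 4.9% of the bright genes. The 20 higher in flt3- CMP were 16.7%, against 2.4% of all genes and 5.94% of the bright genes. The 22 higher in DN3 were 18.3%, against 5.2% of all genes and 11.4% of the bright genes.

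Few genes of the ribosomal proteins themselves passed the tests. Of 59 measured cytosolic ribosomal protein genes the F test called 4 (6.78%), against 22.7% of all genes and 44.3% of the bright genes. None was called in EILP against the rest (median -0.13, 4 at an unadjusted p under 0.05 by limma) or in DN3 against ETP (median 0.01, 6 at an unadjusted p under 0.05). In flt3- CMP against HSC, Rps15, Rpl34, Rpl30 and Rpl26 were higher and Rpl4 lower, and the median was 0.14. These 5 were 8.47% of the list, against 4.22% of all genes and 8.86% of the bright genes. The mean deviation of this list was 0.30 and 0.20 on the flt3- CMP arrays, above all others, the next being a DN3 array at 0.12. Many ribosomal protein genes have near-identical pseudogenes, and a probe set may report more than 1 of them, so single genes of this list are uncertain. The difference between the lists was not tested.

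**Figure D5:**
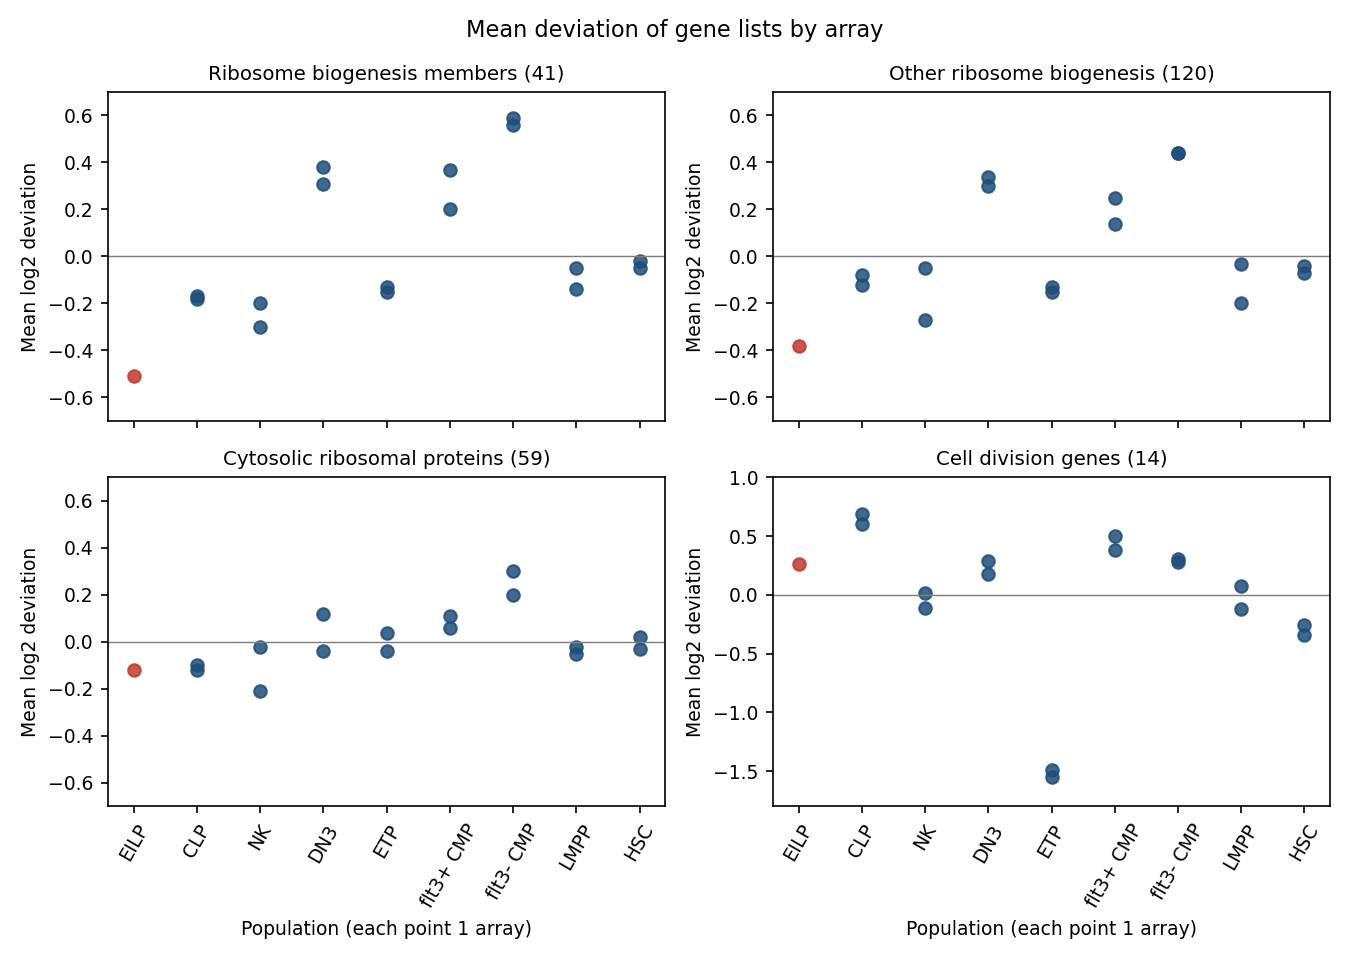
Mean log2 deviation (y axis) of 4 gene lists on each array, by population (x axis), each gene set against its own mean; EILP is red and the cell division panel has a wider axis. EILP is lowest and flt3- CMP highest for the 41 members (-0.51 and 0.57) and for the 120 other biogenesis genes, while in cell division genes ETP is lowest.

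Myc, the transcription factor best known as an activator of this pathway, was 7.49 on the EILP array. It was 8.07 and 7.81 in CLP, 7.85 and 7.83 in NK, 8.91 and 9.19 in DN3, 8.64 and 8.44 in ETP, 9.11 on both flt3+ CMP arrays, 9.13 and 9.05 in flt3- CMP, 8.51 and 8.61 in LMPP, and 8.47 and 8.36 in HSC. EILP was the lowest and the CMP and DN3 arrays were the highest. Myc was lower in EILP than in the rest (-1.08 ± 0.16, adjusted p = 0.00117), lower in CLP than in LMPP (-0.62 ± 0.15, adjusted p = 0.0283), lower in NK than in LMPP (-0.72 ± 0.15, adjusted p = 0.0111) and higher in flt3- CMP than in HSC (0.68 ± 0.15, adjusted p = 0.0249). With 1 array left out, the call for EILP held in 16 of 16 fits, that for NK in 2 of 4, that for CLP in 1 of 4 and that for flt3- CMP in 0 of 4. Mxd1, which competes with Myc for Max, was higher in EILP than in the rest (1.20 ± 0.30, adjusted p = 0.0382) and higher in CLP than in LMPP (1.18 ± 0.29, adjusted p = 0.0281). Of the 10 Myc and Mxd regulators, 3 were called in CLP against LMPP, 1 as higher and 2 as lower. Mxd4 went the other way from Mxd1, with means of 5.81 in CLP and 6.75 in LMPP. In CLP and NK against LMPP, Myc passed the threshold while no member did, and the members' medians there were -0.11 and -0.20. In DN3 against ETP, EILP against CLP and EILP against NK, where 11, 3 and 3 members were called, none of the 10 Myc and Mxd regulators was (limma; 2, 1 and 0 at an unadjusted p under 0.05). The mean of Myc was 9.05 in DN3 and 8.54 in ETP, and 7.49 in EILP, 7.94 in CLP and 7.84 in NK. No test compared Myc with the members. Mycn was lower in flt3- CMP than in HSC (-0.98 ± 0.23, adjusted p = 0.0315) and higher in ETP than in LMPP (1.01 ± 0.23, adjusted p = 0.0283).

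Of the 41 members, 6 had more than 1 probe set, and the brightest was used. In Ddx18, Ddx21, Bms1 and Rrs1 all probe sets had the same sign in EILP against the rest, flt3- CMP against HSC and DN3 against ETP. The second probe set of Ddx18 had larger differences (-1.22, 0.87 and 1.24) than the one used (-0.61, 0.28 and 0.66). In Nop56, a core box C/D protein, the 3 probe sets disagreed. The one used gave 0.31 in flt3- CMP minus HSC and 0.41 in DN3 minus ETP, the second gave 0.38 and 1.92, and the dimmest gave -1.47 and -0.17. In Npm1 both stayed within 0.22 of 0 in these comparisons.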

How the data were processed

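RNA of 17 sorted samples was amplified with a Nugene kit and hybridized to Affymetrix Mouse Gene 2.0 ST arrays, per the labels. The authors deposited 1 table of log2 expression values for 41345 probe sets. Affymetrix Expression Console is named in the submitters' processing notes, and neither its version nor its algorithm is given in the sources used here. That the unit is log2 was read from the values (1.58 to 13.77), and the deposited values were not changed.

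The array annotation gave the names of probe sets: 23521 have 1 symbol, 1814 several and 16010 none. For the 1082 genes with several single-symbol probe sets the one with the highest mean was used, leaving 22180 genes with no filter on low values. In R 4.3.3, limma 3.58.1 (lmFit, eBayes) fitted 1 mean per population to the 17 arrays, which left 8 residual degrees of freedom beside 5.33 from the prior. Tests were two-sided, with Benjamini-Hochberg adjustment over all genes in each of 10 comparisons and a threshold of 0.05. The rest in EILP against the rest is the unweighted mean of the 8 other population means. The fit was checked on simulated data with the same design. The median SE of a log2 difference was 0.21 for EILP minus rest, 0.24 where EILP faced 1 population and 0.20 where populations of 2 arrays faced each other.

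The members, the gene lists and the motifs were chosen with earlier results of these data known. Named members were, in each comparison, up to 8 called members that changed most and whose arrays did not overlap, and those at the ends of the range of means and of the correlation with the other members. Ranking members by level was left out, because levels of different probe sets cannot be compared. Other members and genes of the lists were named after their values were seen. Replicate numbers did not pair samples: over 28 pairs of same-numbered arrays the correlations of their deviations lay between -0.07 and 0.09. No replicate array was a copy: 0 to 5 of the 22180 genes had equal values on both arrays of a population. Alternatives were median centring, quantile normalization, a dim-gene filter, averaging probe sets per gene, an intensity trend, a replicate block, fits on only the populations compared, leaving out each replicate, and, chosen after seeing the data, fits within each side of the Y-linked split and other groups for EILP to be set against. Tcf7, which encodes TCF-1, is not analysed here.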

Additional observations from a re-analysis of the deposited data

How the results depend on the processing

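The members' median took the opposite sign in no comparison under any alternative run, although it came to 0.00 at its highest for CLP against LMPP and for ETP against LMPP, and no called gene reversed. Median centring gave 1 call (higher) for CLP against LMPP, 1 (lower) for NK against LMPP and 0 for flt3+ against flt3- CMP. Quantile normalization gave 1 call for EILP against CLP, 3 (lower) for CLP against LMPP, 2 (lower) for NK against LMPP, 6 for flt3- CMP against HSC and 0 for flt3+ against flt3- CMP. The filter on dim genes left 1 call for flt3+ against flt3- CMP, and the intensity trend and the fit without CLP, EILP and DN3 arrays left 0. The mean of probe sets gave 1 call (lower) for ETP against LMPP. Fitting only the populations compared gave 0 calls for EILP against CLP, 0 for EILP against NK, 0 for flt3+ against flt3- CMP and 5 for DN3 against ETP, and only the CLP, EILP and DN3 arrays gave 0 for EILP against CLP; these fits have fewer arrays to estimate the spread. The causes of the other changes were not tested. For the alternatives in this section, including the block and the fits that leave out an array, the share of all genes called is not given. The members' counts here therefore cannot be set against that share.

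Leaving out 1 array gave 23 to 32 calls by the F test, 10 to 13 for EILP against the rest, 0 and 0 for EILP against CLP, 1 to 3 for EILP against NK, 3 to 5 for flt3- CMP against HSC, 0 to 1 for flt3+ against flt3- CMP, 0 to 1 for NK against LMPP (1 without either NK array) and 4 to 8 for DN3 against ETP. In EILP against the rest, Utp15 and Ltv1 were each lost in 6 of the 16 fits that leave out 1 array.

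With the replicate number as a block, though the numbers did not pair samples, the calls were 28 by the F test, 11 for EILP against the rest, 2 for EILP against CLP, 2 for EILP against NK, 11 for flt3- CMP against HSC, 11 for DN3 against ETP and 0 for flt3+ against flt3- CMP. EILP has 1 array, so its own spread is unknown.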
